A study of Mus musculus with 10 samples.

Results

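Genes that regulate the identity of brown and beige adipocytes were followed in subcutaneous white fat of mice that carried opposite alleles of Fob3a, a quantitative trait locus for obesity on chromosome 15. The 10 genes were taken as a named list: the coactivators Ppargc1a and Ppargc1b, the nuclear receptors Ppara, Esrra and Esrrg, the coregulator Prdm16, the early factor Ebf2, and the lineage markers Zic1, Lhx8 and Tbx1. All 10 of these were among the 19659 genes measured on every array, each read through its probe set of highest mean intensity. FF mice were homozygous for the allele of the Fat line, a line selected for obesity, and VV mice for the allele of the V line, a congenic strain made by repeated backcrossing of a recombinant Fob3a segment to the Fat line. Both groups were untreated F2 females aged 14 weeks on the same chow diet, with 5 mice each, and every array held RNA of inguinal-femoral fat from 1 numbered animal. The whole depot was homogenised, so all of its cell types contribute, and fewer cells of a type cannot be told apart from less RNA per cell. Values are log2 intensities, a difference is FF minus VV, and the number of arrays limits the precision.

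Brown adipocytes burn fuel as heat, and beige adipocytes acquire the same programme inside white fat. Prdm16 and Ebf2 set the identity of these cells, while the PGC1 coactivators, which bind no DNA themselves, dock on nuclear receptors such as PPARalpha and the oestrogen-related receptors (ERRs) to switch on mitochondrial and fat-burning genes. Cold and adrenergic signals raise Ppargc1a through cyclic AMP. Zic1 and Lhx8 mark classical brown fat and Tbx1 marks beige cells.

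The mean of adipocyte markers was even across the mice, while RNA of other tissues was not. The mean log2 level of 8 adipocyte markers ran from 13.18 to 13.29 in FF and from 13.16 to 13.27 in VV. At an unadjusted limma p of 0.05, 3 of the 8 were higher in FF and 1 lower, against 10.2% and 6.18% of all genes. The highest log2 value of any probe set was 14.22, and equal adipocyte content was not tested. The mean of 14 liver markers was 11.40 in VV replicate 1 and 8.28 in VV replicate 2, against at most 7.57 in the other mice, and 13 of the 14 lay over 1 log2 unit above every other mouse in VV replicate 1. The mean of 15 skeletal muscle markers was 9.47 in FF replicate 1 against at most 7.86 elsewhere. Leukocyte markers separated the genotypes, with a mean over 11 genes of 9.46 to 9.87 in FF and 9.99 to 10.37 in VV. Of these 11 genes, 2 were lower in FF past the limma threshold used below, against 0.132% of all genes, and none was higher. All 11 differences were negative, with a median of -0.41. At an unadjusted limma p of 0.05, 10 were lower, against 6.18% of all genes. The groups did not overlap for 5 of the 11, against 4.7% of all genes.

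Both PGC1 coactivators were higher in FF fat, while the receptors and the identity genes did not pass the test. Of the 10 genes, 2 rose and none fell at an adjusted p of 0.05 in limma with Benjamini-Hochberg adjustment over all genes; over all genes 0.753% passed, 0.621% higher in FF and 0.132% lower. The median difference of the 10 genes was 0.17, against 0.00 for all genes. The groups did not overlap for the same 2 genes, both higher in FF; over all genes they did not overlap for 4.7%, and for 3.36% with FF higher. At an unadjusted p of 0.05, 5 of the 10 genes were higher and none was lower, against 10.2% and 6.18% of all genes.

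**Figure D1:**
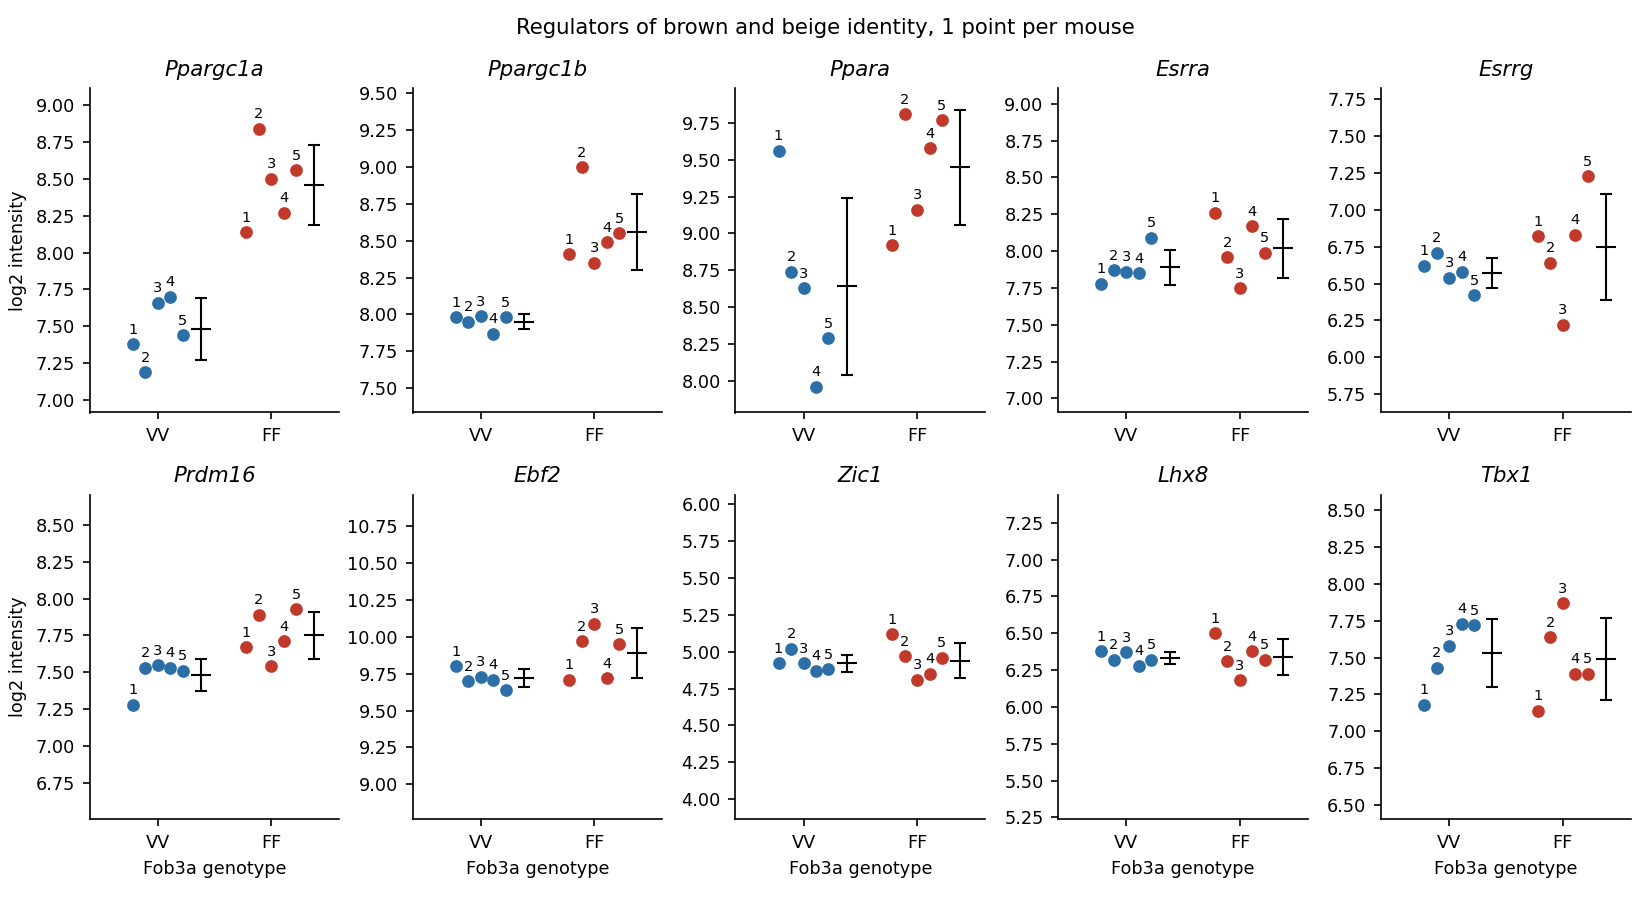
Log2 intensity (y axis, each panel spanning the same height) of each of the 10 genes in VV (blue) and FF (red) mice; points are single mice labelled by replicate number, and the bar beside each group is its mean ± SD, n = 5. Ppargc1a and Ppargc1b are separated between the groups, Ppara is separated except for VV replicate 1 at 9.56, and Zic1 and Lhx8 are flat.

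Ppargc1a, the cold-inducible coactivator of mitochondrial biogenesis, showed the largest difference of the 10. Its log2 intensity in the FF mice was 8.14, 8.84, 8.50, 8.27 and 8.56 (replicates 1 to 5), and in the VV mice 7.38, 7.19, 7.66, 7.70 and 7.44. Every FF mouse lay above every VV mouse, with a gap of 0.44 between the lowest FF and the highest VV value. The means were 8.46 ± 0.27 in FF and 7.48 ± 0.21 in VV (SD, n = 5), a difference of 0.99 ± 0.14 (SE) or 1.98-fold, with a 95% interval from 1.61 to 2.44, and the limma adjusted p was 0.0219. FF replicate 1, the mouse highest in muscle markers, had the lowest Ppargc1a of the FF mice, and without it the difference was 1.07 (adjusted p = 0.0306). Ppargc1a missed the threshold when FF replicate 5 (adjusted p = 0.0507), VV replicate 2 (0.0718) or VV replicate 5 (0.063) was left out, while the difference stayed between 0.89 and 1.07 whichever mouse was left out. Without VV replicates 1 and 2, the mice highest in liver markers, the difference was 0.86 with an adjusted p of 0.0784. The parts of muscle and liver RNA in the Ppargc1a values were not tested.

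Ppargc1a was the only one of the 10 with more than 1 probe set. The other one, dimmer throughout, read 6.89, 7.88, 7.49, 7.05 and 7.16 in FF and 6.37, 6.29, 6.75, 6.66 and 6.36 in VV. Its groups were also apart, and in both probe sets FF replicate 2 was the highest mouse and VV replicate 2 the lowest. Its difference was 0.81 ± 0.17 (SE), short of the threshold when all probe sets were tested in limma (adjusted p = 0.0633), where the brighter one passed (0.0237).

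The promoter of Ppargc1a is shown because this gene carries the largest difference and because cyclic AMP acts on it through short DNA elements. The gene is known to start at more than 1 promoter, and the table used here holds 1 start. Its other promoters were not searched, so a match or its absence below holds for this window only. The 250 bases before that start lie on the minus strand at chr5:51567726-51567975 (GRCm38.p6, sequence from RefSeq). Capitals mark the core of the cyclic AMP response element, TGACG, here read on the opposite strand.
Ppargc1a: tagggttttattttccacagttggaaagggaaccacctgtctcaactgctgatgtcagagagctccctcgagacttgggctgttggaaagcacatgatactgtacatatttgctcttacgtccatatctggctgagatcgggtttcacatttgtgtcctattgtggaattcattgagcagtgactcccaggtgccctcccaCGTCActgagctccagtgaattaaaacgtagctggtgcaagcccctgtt
The core begins 49 bases before the start. It occurs on either strand in 17.8% of all 32851 promoter windows of this length, and it also lies inside every full element, TGACGTCA, which 1.55% of windows hold and this one does not.

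Ppargc1b, the second coactivator, which also drives mitochondrial genes but responds less to cold, rose as well. It read 8.41, 9.00, 8.35, 8.49 and 8.55 in FF and 7.98, 7.95, 7.99, 7.87 and 7.98 in VV. The VV mice lay within 0.12 of each other, and FF replicate 2 stood highest in FF as it did for Ppargc1a. The means were 8.56 ± 0.26 and 7.95 ± 0.05 (SD, n = 5), a difference of 0.61 ± 0.11 (SE) or 1.52-fold, with a 95% interval from 1.30 to 1.79 and a limma adjusted p of 0.0352. The call held when FF replicate 2 (adjusted p = 0.0174), FF replicate 3 (0.0253) or VV replicate 1 (0.0449) was left out. It was lost without any other single mouse, with adjusted p of at most 0.0938. It was also lost without VV replicates 1 and 2 (0.61, adjusted p = 0.122).

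**Figure D2:**
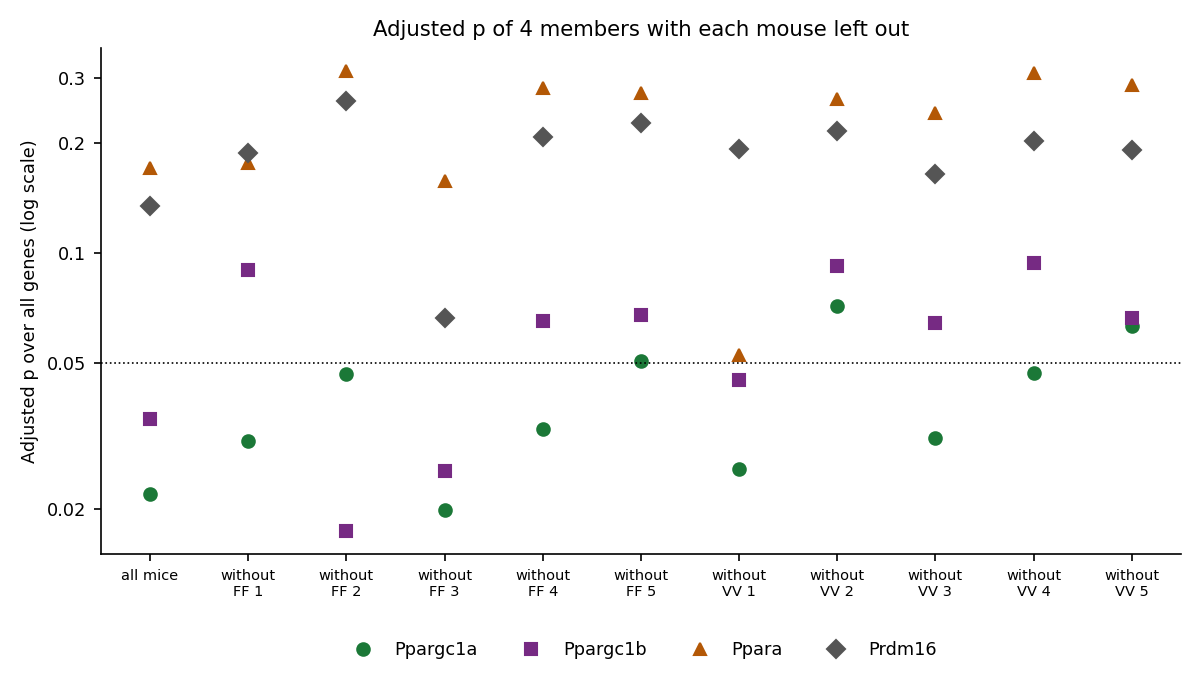
Limma p adjusted over all genes (y axis, log scale) for 4 of the genes with all mice and with each mouse left out in turn (x axis); the dotted line is 0.05. Ppargc1a stays below the line in 7 of the 10 leave-one-out fits and Ppargc1b in 3. Ppara and Prdm16 stay above it in every fit, and Ppara comes nearer of these, at 0.0527, without VV replicate 1.

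The difference of Ppargc1a was larger than that of Ppargc1b by 0.38 ± 0.13 log2 units (SE). The per-mouse difference between both probe sets, Ppargc1a minus Ppargc1b, averaged -0.10 ± 0.17 in FF and -0.48 ± 0.23 in VV (SD, n = 5), and the groups overlapped. A two-sided exact permutation test over the 252 assignments gave p = 0.0238, and 0.0476 after adjustment over the 2 pairs of related genes compared. This call was lost without any single mouse other than VV replicate 4 (adjusted p = 0.0635 to 0.111) and with the mean of both Ppargc1a probe sets (0.29, adjusted p = 0.159).

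Both coactivators shared a gap between the genotypes, and Ppargc1b lay near Ppargc1a by the measure used here. Within VV, Ppargc1a ran from 7.19 to 7.70 while Ppargc1b stayed between 7.87 and 7.99. Patterns were compared by the root mean square difference over the 10 mice after centring each gene on its mean, a description that favours genes with a similar gap between genotypes. Of 19658 other genes, Ppargc1b was second closest to Ppargc1a (0.264 log2 units). Acsm3, an acyl-CoA synthetase of mitochondria, was closest (0.263), followed by Pnldc1 (0.287), Cdh9, a cadherin (0.291), and 2310061I04Rik (0.292). Acsm3 read 10.08 to 10.61 in FF and 8.66 to 9.64 in VV. Of the other regulators followed here, Prdm16 came at rank 189 and Ebf2 at rank 615, and Ppara at rank 3115, with the rest beyond it.

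Among the nuclear receptors, Ppara had the widest spread and the second largest difference of the 10 genes. Ppara, the fatty acid sensor that turns on oxidation genes in brown fat and liver, read 8.92, 9.81, 9.16, 9.58 and 9.77 in FF and 9.56, 8.74, 8.63, 7.96 and 8.29 in VV. VV replicate 1 lay among the FF mice, and the other VV mice lay below all FF mice. The means were 9.45 ± 0.39 and 8.64 ± 0.60 (SD, n = 5), a difference of 0.81 ± 0.28 (SE) or 1.76-fold, with a 95% interval from 1.15 to 2.68 and a limma adjusted p of 0.171. VV replicate 1, the highest VV mouse for Ppara, was also the mouse with the most liver RNA: albumin mRNA (Alb) was 13.91 there and 12.56 in VV replicate 2, against at most 11.33 elsewhere. Liver expresses Ppara strongly. Without VV replicate 1 the difference was 1.04 (adjusted p = 0.0527), and without VV replicates 1 and 2 it was 1.16 (adjusted p = 0.105). Leaving out the highest VV mouse raises the difference in any case, so these fits are no test of liver RNA. The part of liver RNA in the Ppara values was not tested.

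**Figure D3:**
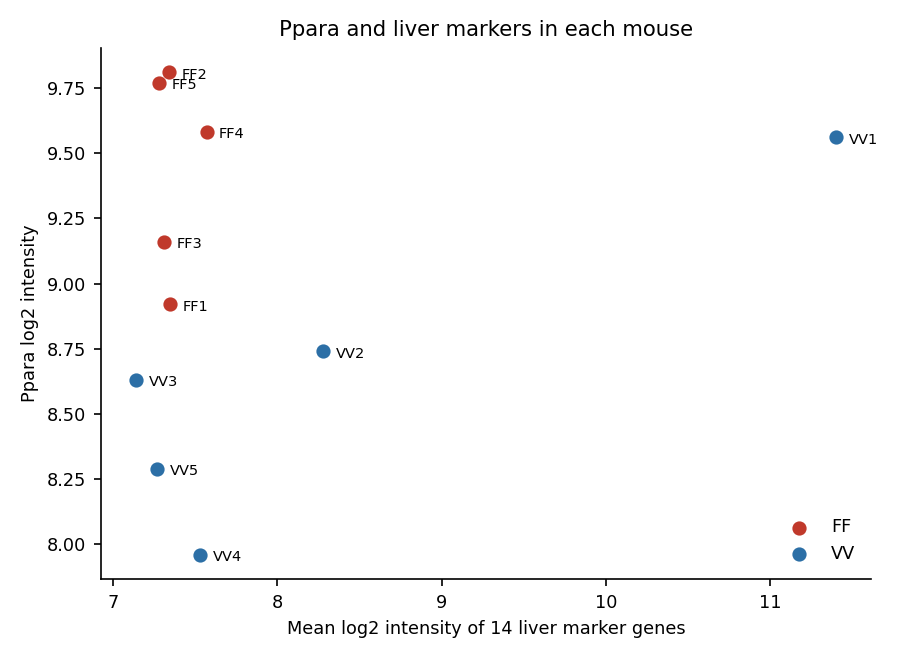
Log2 intensity of Ppara (y axis) against the mean log2 intensity of 14 liver marker genes (x axis) in each of the 10 mice, FF in red and VV in blue. VV replicate 1 stands far to the right at 11.40 with a Ppara value of 9.56, while the other VV mice lie at or below 8.74 and the FF mice at or above 8.92.

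Ppara is the only one of the 10 genes on chromosome 15, which also carries Fob3a and Deptor. The 3 nearest measured genes on each side, Fbln1, Atxn10, Wnt7b, Cdpf1, Pkdrej and Ttc38, were looked up after the values were seen, and none of the 6 passed the limma threshold. Atxn10 differed by -0.16 (limma adjusted p = 0.0749), with every FF mouse below every VV mouse. The others differed by -0.04 to 0.07. All 6 differences were smaller in size than the 0.81 of Ppara, which did not pass either (limma adjusted p = 0.171). On the whole chromosome 6 of 745 measured genes passed, against 0.753% of all genes. The Ppara promoter is shown for its place on that chromosome. The 250 bases before its start in the table lie at chr15:85735526-85735775, plus strand (GRCm38.p6, sequence from RefSeq). Capitals mark a cyclic AMP response core, TGACG, which begins 222 bases before the start.
Ppara: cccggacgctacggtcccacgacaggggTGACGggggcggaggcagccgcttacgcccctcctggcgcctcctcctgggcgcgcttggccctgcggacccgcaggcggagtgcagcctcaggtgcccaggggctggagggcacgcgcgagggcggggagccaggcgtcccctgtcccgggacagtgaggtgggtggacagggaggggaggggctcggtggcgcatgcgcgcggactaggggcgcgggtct
This window is 76.4% G and C, and that of Ppargc1a 48.0%. In the 12 windows that the table holds for 8 of the 10 genes, no ERR element (TCAAGGTCA, 0.387% of all windows) or GABP site (CCGGAAGT, 2.88%) was found on either strand. A TGACG core was found 14 bases before 1 start of Tbx1. The motifs given were kept from a wider set after matches in these windows had been seen.

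Neither ERR receptor passed the test. Esrra, the receptor through which PGC1 coactivators act on respiratory genes, read 8.26, 7.96, 7.75, 8.17 and 7.99 in FF and 7.78, 7.87, 7.86, 7.85 and 8.09 in VV. The groups overlapped, FF replicate 1 being the highest mouse and FF replicate 3 the lowest. The difference was 0.14 ± 0.09 (SE, limma adjusted p = 0.526), and its 95% interval of fold change ran from 0.951 to 1.27. Without FF replicate 1, the mouse highest in muscle markers, the difference was 0.08 (limma adjusted p = 0.715). It was at most 0.21 with any single mouse left out. The part of muscle RNA in these values was not tested.

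Esrrg, a related receptor of oxidative tissues, varied most among FF mice. It read 6.82, 6.64, 6.22, 6.83 and 7.23 in FF and 6.62, 6.71, 6.54, 6.58 and 6.42 in VV. The FF mice included both the highest (replicate 5) and the lowest (replicate 3) of all 10 values. The FF range was 1.00 and the VV range 0.28, and the difference of 0.17 ± 0.15 (SE) had a limma adjusted p of 0.613. The differences of Esrrg and Esrra were 0.04 ± 0.16 (SE) apart, with an exact permutation adjusted p of 0.849.

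Of the identity factors, Prdm16 came nearest to separating the groups. Prdm16, which holds precursor cells to the brown fate, read 7.67, 7.89, 7.54, 7.71 and 7.93 in FF and 7.28, 7.53, 7.55, 7.53 and 7.51 in VV. Only FF replicate 3 lay below a VV mouse, by 0.01. The means were 7.75 ± 0.16 and 7.48 ± 0.11 (SD, n = 5), a difference of 0.27 ± 0.08 (SE) or 1.20-fold, with a 95% interval from 1.06 to 1.37. The limma adjusted p was 0.134, with a raw p of 0.00763. The lowest adjusted p with a mouse left out was 0.0665, without FF replicate 3.

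Ebf2, which marks committed brown and beige precursors and recruits PPARgamma to brown genes, did not pass either. It read 9.71, 9.97, 10.09, 9.72 and 9.95 in FF and 9.80, 9.70, 9.73, 9.71 and 9.64 in VV. FF replicates 2, 3 and 5 stood above all VV mice, and FF replicates 1 and 4 stood among them. The difference was 0.17 ± 0.08 (SE), or 1.13-fold, with a limma adjusted p of 0.289.

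The lineage markers showed no difference past the test. Zic1, a marker of the classical brown depot between the shoulder blades, read 4.81 to 5.12 in FF and 4.87 to 5.02 in VV, and its mean was the only one of the 10 below the 25th percentile of gene means (5.99). Lhx8, a homeobox gene of classical brown fat, read 6.18 to 6.50 and 6.28 to 6.38. Their differences were 0.02 and 0.00, with 95% intervals of fold change from 0.924 to 1.11 and from 0.918 to 1.09 and limma adjusted p of 0.901 and 0.992. Tbx1, a marker of beige cells, read 7.14, 7.64, 7.87, 7.39 and 7.39 in FF and 7.18, 7.43, 7.58, 7.73 and 7.72 in VV, with replicate 1 lowest in both groups. Its difference was -0.04 ± 0.14 (SE), with an interval of fold change from 0.782 to 1.21 and an adjusted p of 0.917. The sign of all 3 differences turned when single mice were left out. Esrrg, Zic1, Lhx8 and Tbx1 had means below the median of gene means (7.53), and the other 6 lay above it.

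**Figure D4:**
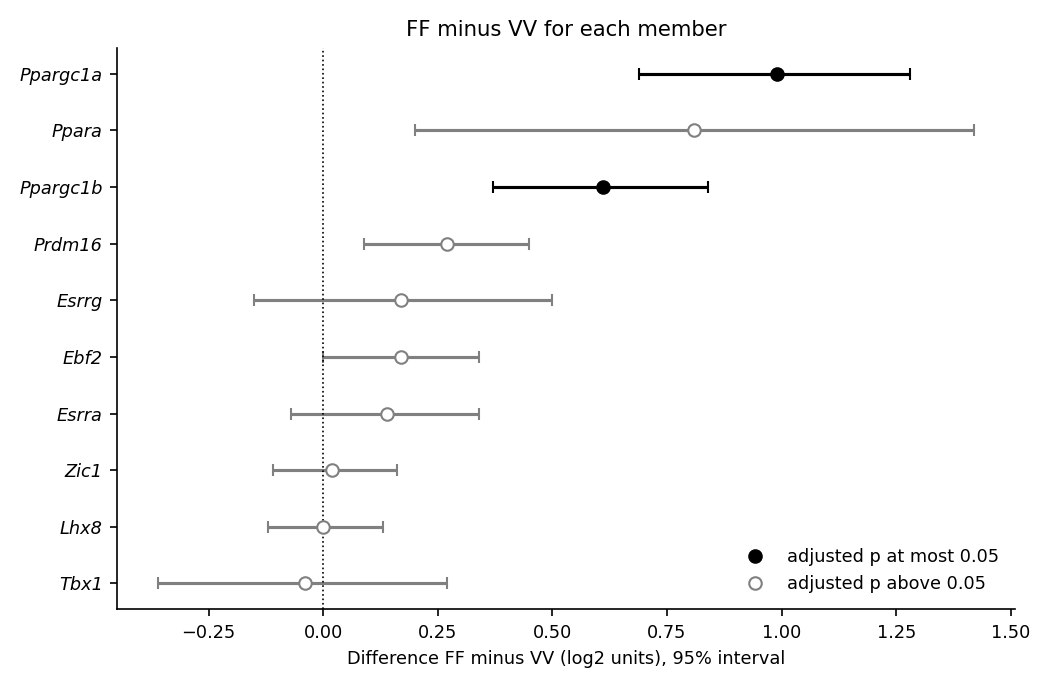
Difference in log2 intensity, FF minus VV (x axis), for each of the 10 genes with its 95% interval from limma; filled points passed an adjusted p of 0.05. Ppargc1a (0.99) and Ppargc1b (0.61) are filled, and the interval of Ppara (0.20 to 1.42) is the widest.

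Some of the genes these regulators control rose in FF, and none of the other regulators or partners listed passed the test. Counts below are at a limma adjusted p of 0.05 over all genes, against the 0.621% of all genes that rose; at an unadjusted p of 0.05, 10.2% of all genes were higher in FF and 6.18% lower. Of 13 measured thermogenic output genes, 5 rose and 8 did not pass, with a median difference of 1.32 against 0.00 for all genes. At an unadjusted p of 0.05, 12 of the 13 were higher and none was lower, and all 13 differences were positive. The 5 were Ucp1, the uncoupling protein that makes heat (3.96 ± 0.41 SE), Cidea, a lipid droplet protein (2.96), Cox7a1 (2.45) and Cox8b (1.93), subunit isoforms of cytochrome c oxidase, and the thioesterase Acot11 (1.71). Ucp1 read 10.17 to 12.09 in FF and 6.22 to 8.06 in VV. Its highest mouse was FF replicate 4, which was among the lower FF mice for Ppargc1a. The count of 5 was between 1 and 8 with single mice left out: 8 when FF replicate 3 was dropped, 3 when FF replicate 1 or VV replicate 3 was, 2 for VV replicates 2 and 4 each, and 1 for each of FF replicates 2 and 5 and VV replicate 5. It was 4 without FF replicate 1 and VV replicate 1, and 1 without VV replicates 1 and 2.

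Of 20 measured oxidation genes known as targets of PPARalpha, ERR and PGC1, 4 rose and 16 did not pass, with a median difference of 0.48. The 4 were Acadvl, the very long-chain acyl-CoA dehydrogenase (0.79), Hadha of the trifunctional protein (0.52), the isomerase Eci1 (0.48) and Sdha of respiratory complex II (0.38). Positive differences were seen in 19 of the 20. The count of 4 became 11 when FF replicate 3 was dropped, 5 for VV replicate 1, 1 each for FF replicate 4 and VV replicate 3, and 0 for every other single mouse. It was 1 without FF replicate 1 and VV replicate 1, and 0 without VV replicates 1 and 2. The mean of the leukocyte markers was lower in every FF mouse than in every VV mouse. The leukocyte markers thus followed the genotype in the direction opposite to these lists, and their part in these values was not tested.

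None of 25 other factors that favour brown or beige identity passed, with a median difference of 0.08 and 7 higher at an unadjusted p of 0.05. Among them Cebpa, an adipogenic factor, differed by 0.27 (adjusted p = 0.0914) and Zbtb16, a zinc finger factor, by 0.35 (adjusted p = 0.127). None of 16 measured factors that restrain the programme passed either, with a median of 0.06 and, at an unadjusted p of 0.05, 2 higher and 2 lower. Twist1, which binds and represses PGC1alpha, differed by 0.15 (adjusted p = 0.174), and Foxo1, a forkhead factor restrained by insulin, by 0.18 (adjusted p = 0.218).

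Of 24 measured partners and upstream activators of the PGC1 coactivators none passed, with a median of 0.02 and 5 higher at an unadjusted p of 0.05. Mef2d, a factor that acts on the Ppargc1a promoter, differed by 0.35 (adjusted p = 0.0646) and Tfam, the mitochondrial DNA factor that PGC1 controls, by 0.27 (adjusted p = 0.0687). A last list pooled 26 measured lineage markers of brown, beige or white adipocytes, other than Zic1, Lhx8 and Tbx1. None of the 26 passed, with a median of -0.01, 4 higher and 3 lower at an unadjusted p of 0.05. Of the 26 differences 11 were positive and 15 negative, and the median mixes markers of all these cell types. Mpzl2 differed by 1.02 (adjusted p = 0.0532) and P2rx5, a purinergic receptor of brown fat, by 0.52 (adjusted p = 0.0628). All of these adjusted p are from limma over all genes.

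**Figure D5:**
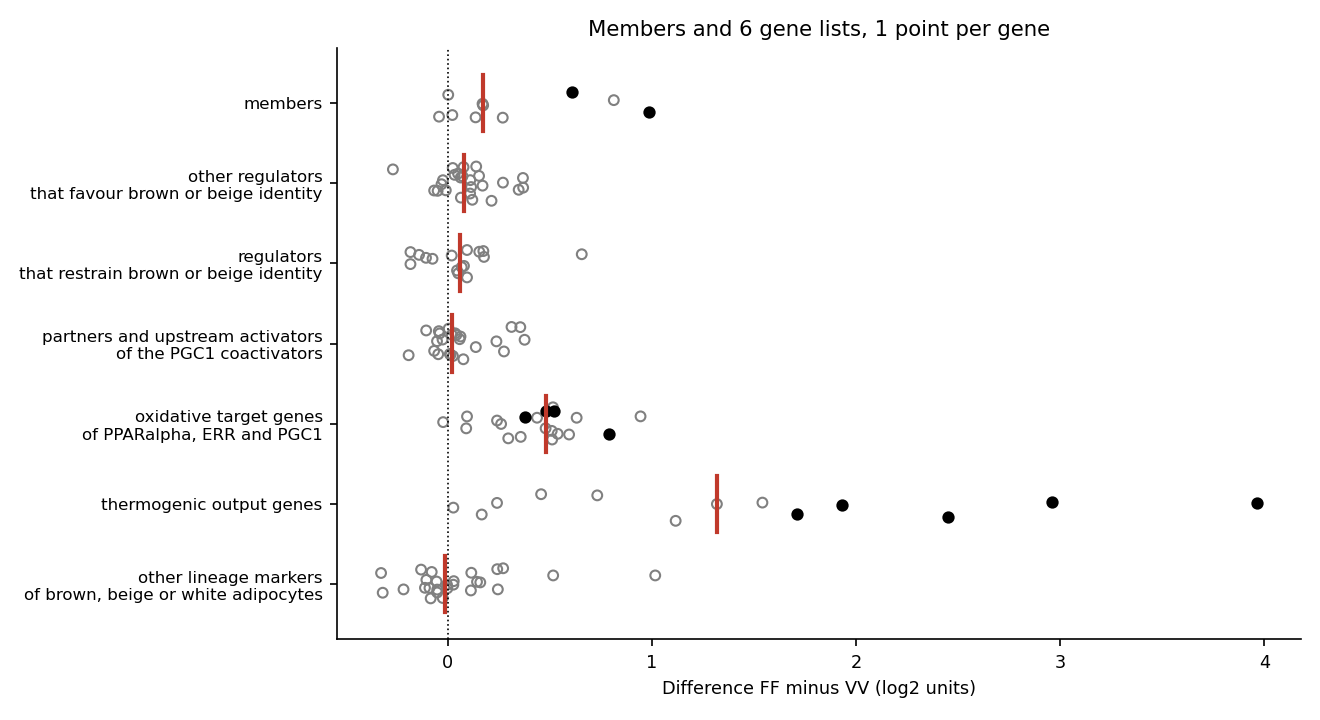
Difference in log2 intensity, FF minus VV (x axis), of each measured gene in the 10 regulators (top row) and in 6 lists of related genes; filled points passed a limma adjusted p of 0.05 and red bars are list medians. Filled points appear among the regulators (2), the oxidation targets (4) and the thermogenic outputs (5), and none in the other 4 lists.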

How the data were processed

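Gene expression in inguinal-femoral fat of 10 mice was read from 1 deposited table of log2 intensities, 1 column per mouse. The authors normalised and summarised these log2 values with RMA, per the submitters' processing notes; RMA version, chip description and build: not given in the sources used here. RMA can compress the differences of dim probe sets. Of 35557 probe sets, 25689 had values on all 10 arrays and the rest on none. Of the former, 20777 named 1 gene in the probe table, giving 19659 genes by the highest mean; 20699 matched a gene reference on GRCm38.p6. The FF and VV mice were compared two-sided by limma 3.58.1 (R 4.3.3; lmFit, then eBayes) without covariates, and p was adjusted by Benjamini-Hochberg over all genes. Array medians ran from 7.15 to 7.21, all FF below all VV. The labels pair no mice, and same-numbered mice deviated together with correlations of -0.264 to 0.102, so the numbers were not used as pairs. Named are the 10 genes, list genes past the threshold (at most 6, otherwise the 2 of smallest p) and the 5 genes most like Ppargc1a. The members, lists and alternatives were chosen with earlier results of these data known. The procedure was tested on simulated data. Promoters were searched over 250 bases before each start. Figures were drawn with matplotlib 3.10.9.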

Additional observations from a re-analysis of the deposited data

Results flagged for a closer look

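In the 20 groups of 5 mice (10 genes, 2 genotypes), Dixon's test at 95% marked 2 values that stood apart, and chance marks about 1 in 20 groups. Prdm16 in VV replicate 1 was 7.28, with the next VV mouse at 7.51, a gap that made up 0.843 of the VV range. Without that mouse the difference of Prdm16 was 0.22 (limma adjusted p = 0.192). Esrra in VV replicate 5 was 8.09, with the next VV mouse at 7.87, a gap of 0.729 of the range. Without it the difference of Esrra was 0.19 (limma adjusted p = 0.396).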

How the results depend on the processing

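Ppargc1a, Ppargc1b, Ppara, Prdm16, Esrra, Esrrg and Ebf2 had a positive difference under every alternative in which they were tested; of these 7, only Ppargc1a and Ppargc1b passed the threshold in any fit. The count of the 10 genes past the threshold was 0 to 2 with single mice left out, 1 without FF replicate 1 and VV replicate 1, and 0 without VV replicate 1 and VV replicate 2 (chosen after seeing the data), with the replicate block or with the unmoderated test. In the block fit the adjusted p was 0.143 for Ppargc1a and 0.161 for Ppargc1b. The count of all genes past it was 148 in the reported fit and 7 to 379 with single mice left out. It was 28 without FF replicate 1 and VV replicate 1, 8 without VV replicate 1 and VV replicate 2, 5 with the replicate block and 7 with the unmoderated test. It was 338 with arrays centred on their median, 99 after quantile normalisation, 230 or 355 with genes below the 25th percentile or the median left out, 383 with array weights and 704 at an adjusted p of 0.10. Ppargc1a minus Ppargc1b was 0.31 to 0.46 with single mice left out. It missed the threshold at 0.39 without FF replicate 1 and VV replicate 1, 0.25 without VV replicate 1 and VV replicate 2, 0.29 with the mean of probe sets and 0.38 with the replicate block, where pairs allow no p below 0.0625. With single mice left out, Esrrg minus Esrra ran from -0.09 to 0.10, Zic1 from -0.02 to 0.05, Lhx8 from -0.04 to 0.04 and Tbx1 from -0.14 to 0.04. Without FF replicate 1 and VV replicate 1, Zic1 was -0.02 and Lhx8 -0.03; without VV replicate 1 and VV replicate 2, Tbx1 was -0.19 and Esrrg minus Esrra 0.14. The thermogenic outputs past the threshold, 5 in the reported fit, were 0 with the replicate block and 8 with arrays centred on their median. The oxidation targets, 4 in the reported fit, were likewise 0 and 8. The cause of these changes was not tested.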

Other observations

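FF replicate 3 was the lowest FF mouse for 6 of the 10 genes (Ppargc1b, Esrra, Esrrg, Prdm16, Zic1 and Lhx8) and the highest for 2, Ebf2 and Tbx1. Among the FF mice it also had the highest mean of 5 adipose progenitor markers (10.41) and of 7 smooth muscle and pericyte markers (10.99). Its mean of 7 endothelium markers (10.54) was the highest of all mice. In the fit with array weights its array had the lowest weight of the 10 (0.555). Without FF replicate 3 the difference of Tbx1 was -0.14 and that of Ebf2 0.12. Those of Esrrg and Esrra were 0.30 and 0.21, and none of these 4 passed the limma threshold. Why this mouse differed was not tested.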
